A study of Mus musculus with 4 samples.

Results

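The comparison described here set a 3T3-L1 line stably transfected with an shRNA against slincRAD (shRNA8) beside wild type 3T3-L1 cells, both at day -2, before adipogenic induction. It used 2 of the 4 arrays of the series, 1 array per line, and covered 18892 regions of the mouse genome (build mm9). A region was a run of 3 or more array probes with gaps of up to 1000 bp, in which every probe read the input DNA above background in both arrays. Of the 174638 genomic probes of the array 105164 (60.2%) met that condition, and those with too few neighbours fell outside the regions. The median region had 5 probes and was 1403 bp wide.

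3T3-L1 is a mouse embryo fibroblast line that turns into fat cells when confluent cells are given an adipogenic mixture, and is the most used model of a preadipocyte. slincRAD is a long noncoding RNA, and an shRNA is a hairpin RNA that lowers the level of its target. Methylated DNA immunoprecipitation (MeDIP) enriches DNA fragments that carry 5-methylcytosine with an antibody, and the precipitated DNA (IP) is then compared with total sheared DNA (input). In mammals the mark sits mainly on cytosines of CpG pairs, is dense over repeats and silent genes of many families, and is low at most CpG-rich promoters.

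Both lines were grown in DMEM with newborn calf serum and harvested after several passages, and neither had received the adipogenic mixture of 3-isobutyl-1-methylxanthine, dexamethasone and insulin at this time. The control is labelled wild type, with no control shRNA or empty vector named, and the labels do not say whether the shRNA8 line is 1 clone or a pool. The line, its transfection and the array therefore cannot be told apart. MeDIP does not read RNA, so the slincRAD level and the fibroblast identity of the samples were not checked here. With 1 array per line there was no replicate spread and no test, and the errors below are the SD over the probes of a region and an error carried forward from the deposited error of each spot.

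The other 2 arrays hold the same lines at day +2, and their values are given beside the day -2 values because they share no array with them. The day +2 values used the probes kept at day -2, whether or not their input was above background at day +2. Over the probes kept, the median processed signal was 514.7 (shRNA8) and 450.7 (control) in the input channel. It was 738.6 and 675.8 in the IP channel. The input was the weaker measurement. Its median signal above local background was 24.5 and 18.4 scanner units on an offset of 37.0 and 37.9, against 144.8 and 126.4 on an offset of 9.59 and 9.77 in the IP channel. The median deposited spot error was 15.7% and 18.3% for the input and 10.2% in both arrays for the IP.

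The IP signal differed little between the lines, and most of the spread of the ratio was also present in the input channel. The difference in the IP signal between shRNA8 and control had an SD of 0.15 over probes and 0.07 over regions on the log2 scale. The difference in the input signal had an SD of 0.60 over probes and 0.29 over regions. That of the ratio of IP to input had an SD of 0.59 and 0.28, about as wide as the input alone. Across probes, the IP and input differences had a Pearson correlation of 0.17 over 105164 probes, which share arrays and spots.

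**Figure D1:**
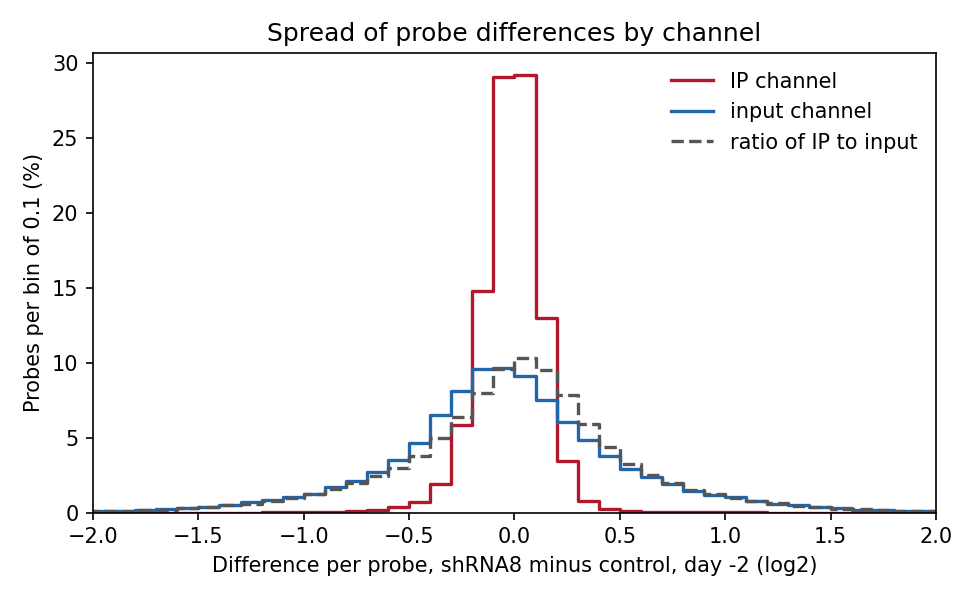
Percent of the 105164 kept probes (vertical axis) in each bin of the difference between shRNA8 and control at day -2 (horizontal axis, log2), for the IP channel, the input channel and their ratio. The IP curve is narrow (SD 0.15), while the input (SD 0.60) and ratio (SD 0.59) curves nearly coincide.

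The size rule for the ratio asked for a mean log2 difference of 0.6 or more in size (1.52-fold) and for the same direction in 75% or more of the probes. By this rule 314 regions were higher in shRNA8 (1.66% of the regions) and 252 were lower (1.33%), 566 in all (3%). The higher regions had a median ratio difference of 0.71, a median IP difference of -0.01 and a median input difference of -0.74. The lower regions had a median ratio difference of -0.71, a median IP difference of -0.03 and a median input difference of 0.68. A higher ratio thus went with a dimmer input, and a lower ratio with a brighter input, at a nearly equal IP signal. The input difference was larger than the IP difference in 564 of the 566 regions, and was 0.6 or more in size in 475. The IP signal differed by 0.2 or more in the direction of the ratio in 7 of the higher and 15 of the lower regions. Just inside the rule the mean differences were 0.601 and -0.601, and just outside it were 0.599 and -0.599.

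These calls rested on few and dim spots. In 328 of the 566 regions a single probe made up the larger share of the summed difference. When the probe with the ratio difference largest in size (the farthest probe) was left out of each region, 86 regions were higher and 95 lower. Of these, 46 higher and 51 lower regions were also called with all their probes. With the median spot signals, which carry neither the background subtraction nor the dye normalisation of the processed signals, 3 regions were higher and 5 lower. Which of these steps moved the counts was not tested. The median spot signals include the input offset (median 37.0 in shRNA8 and 37.9 in control), so the same size rule is harder to reach with them. The error carried forward from the spots had a median of 0.31 per region, and 515 regions (2.73%) differed by more than 2 such errors, among them 71 of the higher and 101 of the lower regions.

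The share of called regions fell with the brightness of the input. Over 5 classes of regions of equal size, ordered by input signal, the share called higher was 4.31% in the dimmest class, then 1.38%, 1.16%, 0.79% and 0.66% in the brightest. The share called lower went from 2.88% in the dimmest class to 0.40% in the brightest. The median carried-forward error went from 0.50 in the dimmest class to 0.20 in the brightest. Regions of long probes, which this kind of array uses for AT-rich sequence, were also called more often. Where the mean probe length was under 46 bases 1.12% were higher and 0.94% lower, and where it was at least 55 bases 5.60% were higher and 1.87% lower. In the next-longest class, with a mean of 51.7 bases, 3.71% were higher and 2.79% lower. Whether brightness or probe length sets these calls was not tested.

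**Figure D2:**
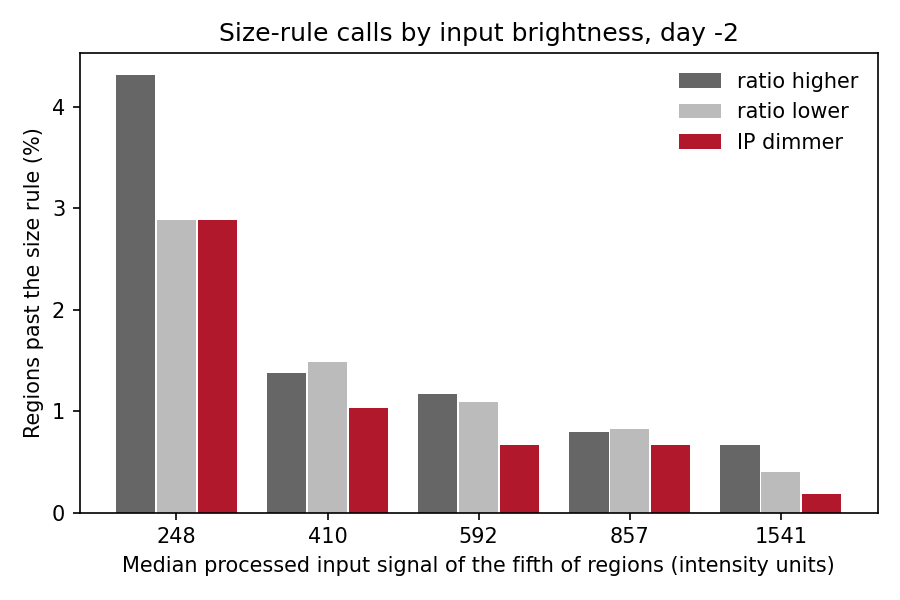
Percent of regions past the size rule at day -2 (vertical axis) in 5 classes of equal size ordered by input brightness (horizontal axis, median processed input signal of each class). Bars show regions with a higher ratio, a lower ratio and a dimmer IP signal in shRNA8, and all 3 are highest in the dimmest class (4.31%, 2.88% and 2.88%).

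The files pair probes with positions only, so regions are named by their mm9 coordinates and no gene is assigned to them. The regions named first had at least 5 probes that all moved the same way, a set of 37 higher and 36 lower regions, from which the 10 farthest on each side were taken. The order of these 20 regions was set by the ratio difference itself, so that difference is a description of them. In every one of the 20 the input difference was larger in size than the IP difference. The IP differences ran from -0.15 to 0.06 in the 10 higher regions and from -0.19 to 0.05 in the 10 lower ones. In 9 of the 20 some probes had an IP signal not above background in at least 1 array. The sizes also depended on the processing. With the median spot signals, which include the offset, the 20 differences kept their sign but were 0.04 to 0.54 in size. Of the 20 regions 0 stayed past the size rule, which is harder to reach with those signals. Without the farthest probe 14 stayed past it, and with spots flagged by the software left out 17 did.

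The largest higher difference was at chr6:57182490-57183602, 5 probes, with a log2 ratio of -1.47 in shRNA8 and -2.51 in control. Its difference was 1.04 ± 0.71 (SD over probes) with a carried-forward error of 0.73. The mean input signal was 194 in shRNA8 and 374 in control, and the IP signal was 85.3 and 83.3. The IP difference was -0.09 on the log2 scale, while the input differed by -1.13. Of the 5 probes, 3 had an IP signal above background in both arrays, and over those 3 the ratio difference was 0.77. At day +2 its ratio difference was 0.36, with input above background in both arrays at 3 of the 5 probes.

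At chr2:175294521-175295918, 6 probes inside the distal chromosome 2 window of zinc finger genes described further on, the log2 ratio was -3.11 in shRNA8 and -4.04 in control. The difference was 0.93 ± 0.47 with a carried-forward error of 0.62. Its mean input signal was 332 in shRNA8 and 614 in control, and its IP signal was 46.8 and 47.4. The ratio of the region was among the lowest of those named in both lines, that is, its IP signal was low against its input in each. Its probes share their spacing and lengths with another region of the chromosome, so near-identical copies may be read together, which was not tested. The day +2 difference was -0.23, of the opposite sign.

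Only 2 of the 10 higher regions differed by more than 2 carried-forward errors. At chr4:124761329-124762757 the difference was 0.84 ± 0.62 over 6 probes, with an error of 0.35 and input signals of 276 in shRNA8 and 451 in control. The IP signals there were 408 and 388. At chr6:86743288-86744844 it was 0.84 ± 0.44 over 5 probes, with an error of 0.34 and input signals of 199 and 310. These regions parted at day +2, where the first had a difference of 0.42 and the second one of -0.36. Of the 10 higher regions 6 kept their sign at day +2, with values from -0.36 to 0.57, and 0 passed the size rule there.

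The largest lower difference was at chr17:95233645-95235456, 5 probes, with a log2 ratio of -0.70 in shRNA8 and 0.79 in control. The difference was -1.49 ± 1.09 with a carried-forward error of 0.43. Its input signal was 423 in shRNA8 and 129 in control, and its IP signal was 316 and 282. At day +2 its ratio difference was 0.11, but only 3 of its 5 probes had input above background in both arrays there. At chr8:123650298-123651935 the difference of -1.05 ± 1.37 leaned on 1 probe of 6, whose input read 6825 in shRNA8 and 523 in control and whose IP read 878 and 932. The same probe read 517 and 710 in the input at day +2, when the region differed by 0.14.

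Of the lower regions 3 passed the same rule at day +2, where 2.39% of all regions were lower and 2.3% higher. At chr13:102001002-102002389 the difference was -0.998 ± 0.76 over 5 probes at day -2, with input signals of 404 in shRNA8 and 176 in control, and -0.96 at day +2. At chr10:117182929-117184436 it was -0.95 ± 0.55 over 7 probes, with input signals of 1052 and 472, IP signals of 132 and 119, and a day +2 value of -0.82. At chr4:146063414-146065201 it was -0.92 ± 0.33 over 8 probes, with a log2 ratio of -3.51 in shRNA8 and -2.59 in control, and -1.23 at day +2. All 8 of its probes lay between -1.36 and -0.34. Its input signal was 715 and 377 and its IP signal 76.2 and 79.3, and its carried-forward error of 0.47 left it just short of 2 errors. The other 9 lower regions exceeded 2 errors. Of the 10, 8 kept their sign at day +2, with a median of -0.25.

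**Figure D3:**
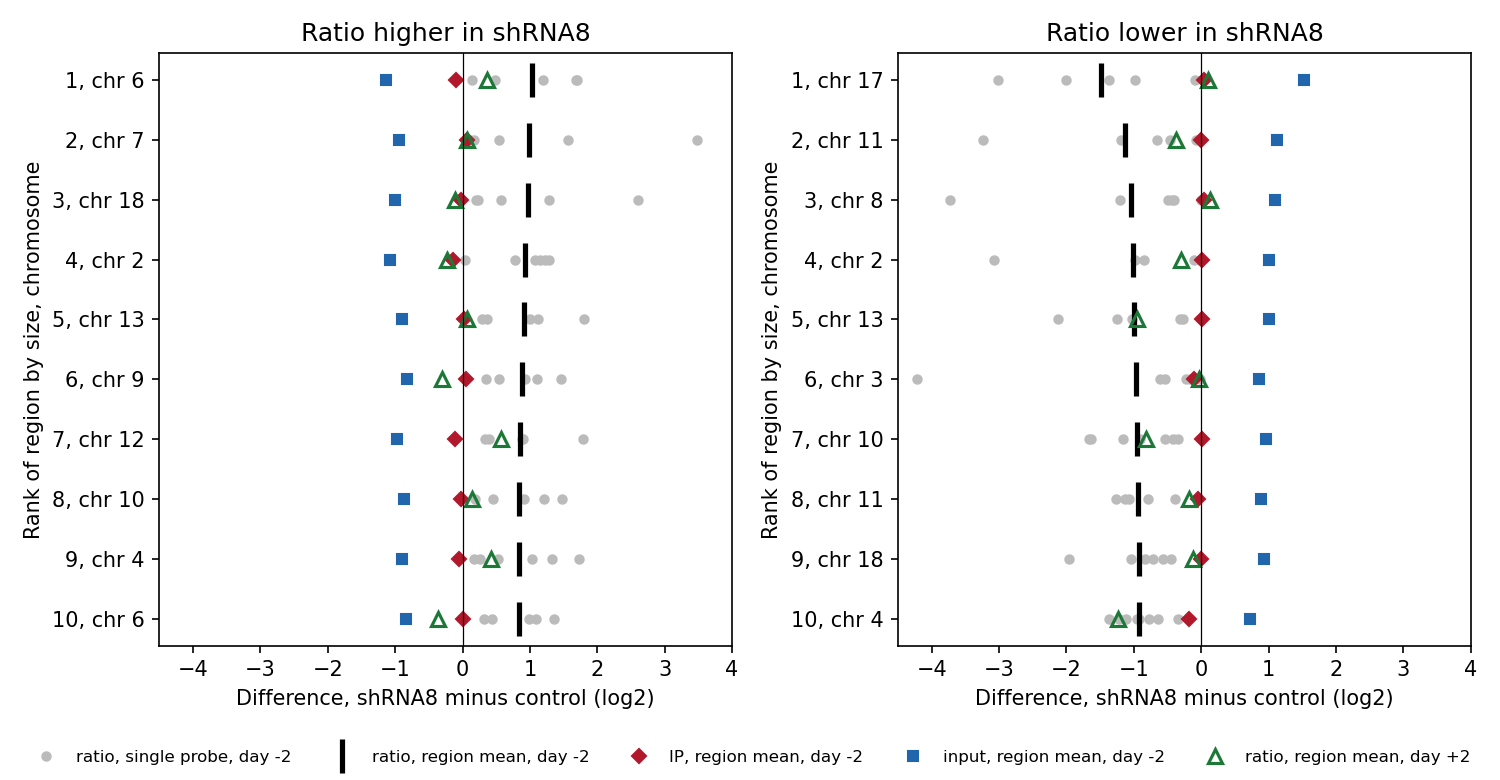
The 10 regions farthest above (left) and below (right) control at day -2, ranked down the vertical axis with their chromosome, against the difference between shRNA8 and control (horizontal axis, log2). Grey points are single probes, black bars are region means of the ratio, diamonds and squares are the IP and input means, and open triangles are the ratio means at day +2: the IP means lie within 0.19 of 0, the input means lie at 0.73 or more in size, and 3 lower regions keep a day +2 mean of -0.82 or below.

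The spread within these regions was wide. The SD over probes was larger than the mean difference in 2 of the 10 higher and 4 of the 10 lower regions. At chr11:49476010-49476969, by contrast, the 5 probes ran from -1.27 to -0.40 around a mean of -0.93 ± 0.35, with input signals of 573 in shRNA8 and 271 in control. Its IP signals were 578 and 544. At day +2 that region differed by -0.19.

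The day +2 arrays gave a second reading of all 566 called regions over the same probes, of which some had day +2 input not above background. Of the 252 lower regions 184 (73.0%) were also below 0 at day +2, against 46.9% of all regions, and 42 passed the size rule in the same direction, against 4 in the opposite one. Of the 314 higher regions 180 (57.3%) were also above 0 at day +2, against 53.1% of all regions, and 17 passed in the same direction, against 7 in the opposite one. The difference between the higher and the lower lists was not tested.

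Regions that stayed past the rule without their farthest probe and also exceeded 2 carried-forward errors numbered 12 higher and 23 lower, a choice made after the values were seen. Among the 23 lower regions 19 were also below 0 at day +2, 10 passed the rule there and 0 passed in the opposite direction, with a day +2 median of -0.49. Among the 12 higher regions 6 were above 0 at day +2 and 1 passed, with a median of 0.05. The one that passed was chr16:91688580-91690150, with 0.95 ± 0.62 over 4 probes at day -2 and 0.81 at day +2. Its input signal at day -2 was 249 in shRNA8 and 456 in control, and its IP signal was 270 and 266.

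Of the 10 lower regions that passed on both days, some shared a chromosome. On chromosome 10, chr10:116718836-116720407 differed by -0.85 ± 0.69 over 7 probes at day -2 and by -0.92 at day +2. Its input signal was 1280 in shRNA8 and 631 in control, while its IP signal was 196 and 181. Of the pair on chromosome X, the one at chrX:144434034-144435488 (5 probes) had -0.97 ± 1.05 at day -2 and -1.29 at day +2. The other, at chrX:146217981-146219419 (3 probes), had -0.84 ± 0.31 and -1.09. Of the rest, chr7:33614385-33615872 differed by -0.86 ± 0.82 over 8 probes and by -0.81 at day +2. chr5:77640152-77641453 differed by -0.87 ± 0.83 over 6 probes and by -0.89 at day +2. Their inputs were brighter in shRNA8 by 0.80 and 0.85 and their IP differences were -0.06 and -0.02.

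The IP channel, which carries the antibody's signal, was described apart with a smaller size of 0.2 (1.15-fold), since it varied less. By that rule 28 regions were brighter in shRNA8 (0.148%) and 205 were dimmer (1.09%), 233 in all (1.23%). The dimmer regions had a median IP signal of 149.6, against 672.1 over all regions and 522.8 in the brighter ones. Of the 205 dimmer regions 109 were in the class of dimmest input and 7 in the brightest. Among the 205 dimmer regions 8 also had a lower ratio and 8 had a higher one. Among the 28 brighter regions 3 had a higher ratio and 0 a lower one. Of all regions 1.33% had a lower and 1.66% a higher ratio. Over probes with the IP also above background in both arrays, 27 of 18324 regions were brighter and 137 dimmer by the 0.2 rule. That setting was added after the data were seen. With a size of 0.6 in the IP channel, 1 region was brighter and 0 were dimmer.

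The region brighter by over 0.6 was chr1:16677446-16678741, with an IP difference of 1.30 ± 2.77 over 5 probes. It came from the probe at chr1:16678286-16678339, which read 3952 in shRNA8 and 47.3 in control in the IP channel and 291374 and 162 in the input. At day +2 that probe read 51.1 and 42.6 in the IP channel, and the region's other 4 probes differed by -0.01 to 0.20 at day -2. The next were chr2:36494920-36495698 (0.50 ± 0.52) and chr17:15699788-15701490 (0.47 ± 0.95). In the latter, 1 probe read 53.7 in shRNA8 and 13.3 in control and the other 3 differed by -0.17 to 0.14. At chr7:3867037-3867908 all 4 probes were brighter, by 0.14 to 0.64 with a mean of 0.31 ± 0.23, while the input was brighter by 0.55, and at day +2 the IP difference was -0.04. chr13:22684785-22686084 was brighter by 0.31 ± 0.32.

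Among the dimmer regions, chr1:94544929-94545373 differed by -0.57 ± 0.75 over 3 probes, again through 1 probe. That probe read 567 in shRNA8 and 1404 in control in the IP channel, and 16789 and 835 in the input. The other 2 probes differed by -0.10 and -0.17. The remaining 4 were chr19:12342711-12343163 (-0.48), chr7:114017681-114018749 (-0.46), chr4:116194225-116195248 (-0.45) and chr19:8798224-8798953 (-0.42), each of 3 probes. These too leaned on single probes. Without the farthest probe the first 3 differed by -0.19, -0.19 and -0.05, and the fourth by -0.54. In the fourth, the probe farthest in the ratio was not the one with the largest IP difference. At chr4:116194225-116195248 a single probe differed by -1.25 and the other 2 by -0.08 and -0.01. In both chromosome 19 regions the probe with the largest IP difference read 13.1 in shRNA8, near the lowest value given, against 25.1 and 22.1 in control. The 5 dimmer regions ranged from -0.07 to 0.19 at day +2 and the 5 brighter ones from -0.04 to 0.15, so none of these 10 IP differences was as large there. In the input channel, at the size of 0.6, 219 regions were brighter (1.16%) and 390 were dimmer (2.06%), 609 in all (3.22%).

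The positions of the called regions were described next. On a fixed grid of 2 Mb windows, 1250 windows held regions, with a median of 11 regions each. Lower regions fell in 203 windows, 1.24 to a window, and higher regions in 256, 1.23 to a window, so the lists were spread about equally. In 6 windows there were 4 or more lower regions and in 3 there were 4 or more higher ones. The leading window for lower regions was chromosome 4, 146 to 148 Mb, with 6 of 32. It was followed by chromosome X, 144 to 146 Mb, with 5 of 9, against 1.33% lower over all regions. Windows on chromosome 7 (114 to 116 Mb, 4 of 31), chromosome 2 (150 to 152 Mb, 4 of 33) and chromosome X (34 to 36 Mb, 4 of 46) came next, with mean ratio differences of -0.07, -0.06 and -0.07. At day +2 these 3 windows held 4, 0 and 2 lower regions. The windows were chosen by their counts, which are therefore given as descriptions.

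In the chromosome X window, all 9 regions had a lower ratio in shRNA8, from -0.97 to -0.26, with a mean of -0.60. Their input was brighter by a mean of 0.44 and their IP signal dimmer by a mean of -0.15. Of the 9 regions 3 passed the IP rule as dimmer, against 1.09% of all regions. In the lowest of 5 equal classes by IP signal 4.39% of regions did. The largest difference, at chrX:144434034-144435488, came with log2 ratios of -3.27 in shRNA8 and -2.30 in control. The smallest, at chrX:145539309-145540475, was -0.26 with log2 ratios of -3.97 and -3.70. The mean ratio difference of the 9 regions was -0.78 at day +2, where 6 passed the rule as lower (2.39% of all regions did), with a mean input difference of 0.85. The IP difference there had the opposite sign, with a mean of 0.09. The order of the lines also changed at probes near the lowest IP reading, such as chr6:57183014-57183073 outside this window. That probe read 13.1 in shRNA8 and 13.4 in control at day -2, and 14.2 and 12.4 at day +2. Its IP difference at day -2 was -0.17 after centring. Whether such readings set the signs in the 9 regions was not tested. These regions had a low IP signal, with a median IP signal of 60.1 against 672.1 over all regions, and had long probes, with a mean of 53.8 bases against 47.6. In 5 of the 9 the probe spacing and lengths were repeated elsewhere on the chromosome, against 112 regions of that kind in the whole set, so their probes may read more than 1 copy. On chromosome X as a whole 12 of 768 regions were higher (1.56%, against 1.66% of all regions) and 16 lower (2.08%, against 1.33%).

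Gene clusters were described by 13 windows around gene families, whose mm9 limits were placed from general knowledge and not from an annotation, so a region within a window is not assigned to a gene. KRAB zinc finger genes encode repressors of which many silence transposable elements, and 2 of their clusters were among the 13. The window on distal chromosome 4 (chr4:145052994-147463434 from first to last region) held 30 regions, of which 8 were lower (26.7%, against 1.33% of all regions) and 0 higher. Of these 30 regions 23 had a difference below 0, and the means were -0.29 for the ratio, -0.04 for the IP and 0.25 for the input. At day +2 the mean ratio difference was -0.44 and 14 of the 30 regions were lower, against 2.39% of all regions.

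Along chromosome 4 the lower regions of this window were described as a block, whose limits were drawn after the values were seen. From the first to the last lower region (chr4:145206217-147077913) there were 18 regions, of which 8 were lower and 16 had a difference below 0. Their mean ratio difference was -0.44, with an input difference of 0.38 and an IP difference of -0.05. Examples were chr4:145682677-145684282 (6 probes, -0.67, day +2 -1.18), chr4:146926098-146927491 (6 probes, -0.68, day +2 -1.02) and chr4:147076279-147077913 (8 probes, -0.71, day +2 -0.67). Inside the block 2 regions were above 0 at day -2. One was chr4:146034566-146035305, with 0.44 at day -2 and 0.48 at day +2, and the other was chr4:145650471-145651407, with 0.07 and -0.75. The region just beyond, chr4:147183474-147185118, differed by -0.51 and -0.67. The 21 regions from there to the end of the 2 Mb window had a mean of -0.06 with 0 lower, and -0.07 with 1 lower at day +2. The 18 regions of the block had at day +2 a mean of -0.70, an input difference of 0.72 and an IP difference of 0.05, and 13 were lower.

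**Figure D4:**
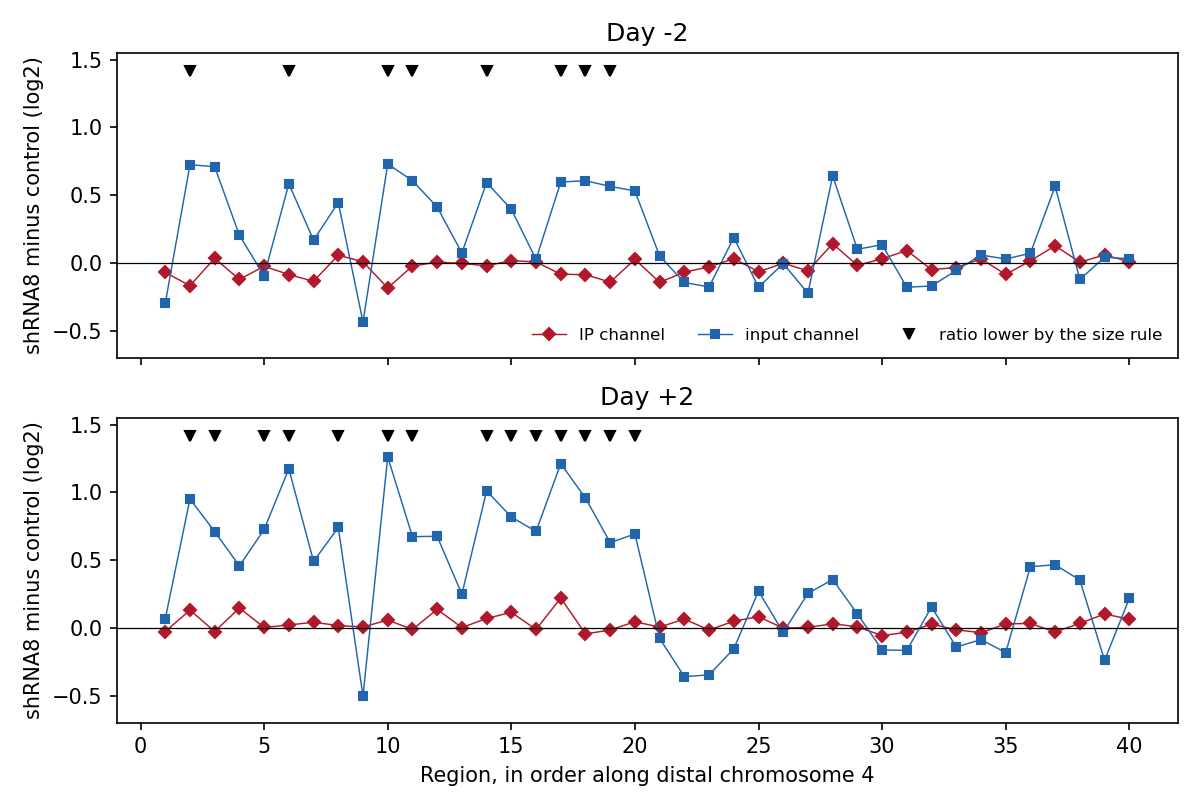
Difference between shRNA8 and control (vertical axis, log2) in the IP and input channels for 40 regions in their order along distal chromosome 4 (horizontal axis), at day -2 (top) and day +2 (bottom), with triangles over regions whose ratio was lower by the size rule. Input values lie mostly above 0 from the second to the twentieth region at both days and around 0 after that, while the IP values are at most 0.22 in size.

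In the zinc finger window on distal chromosome 2 (chr2:175032082-177494202) the mean had the opposite sign. Its 25 regions had a mean ratio difference of 0.20 (SD 0.26), with an IP difference of -0.07 and an input difference of -0.27. Of the 25 regions 19 were above 0. By the size rule 1 of the 25 was higher and 0 were lower, against 1.66% and 1.33% of all regions. At day +2 the mean was -0.16, with an input difference of 0.14. The probe layout was repeated in 14 of these 25 regions.

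Olfactory receptor genes are the largest mouse gene family and are mostly silent outside the nose. Their window on chromosome 2 (chr2:85504527-89991412) held 83 regions, of which 9 were higher (10.8%, against 1.66% of all regions) and 2 lower (2.41%, against 1.33%). The mean ratio difference was 0.13, with an IP difference of -0.06 and an input difference of -0.19. The 83 regions were dim, with a median input signal of 239 against 592 over all regions, and their probes had a mean length of 54.0 bases. Of all regions in the dimmest input class 4.31% were higher, and of those with probes of at least 55 bases 5.60% were. In the next-longest probe class, with a mean of 51.7 bases, 3.71% were higher. The extreme was chr2:89861937-89862933, whose 3 probes gave 3.05 ± 3.11, with input signals of 144.6 in shRNA8 and 1159 in control and IP signals of 292 and 294. At day +2 it differed by -0.39. Over the window 7 regions were higher and 2 lower at day +2, where 2.3% and 2.39% of all regions were, with a mean of 0.08. Without the background filter the window held 208 regions with 5 higher. The olfactory window on chromosome 9 held 49 regions, 1 higher and 2 lower, with a mean of 0.04.

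Major urinary protein (Mup) genes, a tandem family expressed mainly in liver, had 17 regions in their chromosome 4 window, with 0 higher and 0 lower and a mean ratio difference of -0.17 at day -2. At day +2 the same regions had a mean of -0.66 and 10 were lower, against 2.39% of all regions. In both cases the IP difference was near 0 (0.00 and -0.01) and the input difference was 0.17 and 0.63.

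The windows around developmental and structural gene families showed small mean differences. Hox genes encode the transcription factors that pattern the body axis, and their 4 clusters had means of 0.04 (Hoxa, 14 regions), 0.02 (Hoxb, 13 regions), -0.05 (Hoxc, 10 regions) and 0.02 (Hoxd, 14 regions), with 1 lower region each in Hoxb and Hoxc. The replication-dependent histone genes of chromosome 13 had 66 regions, 3 higher (4.55%) and 2 lower (3.03%), with a mean of 0.04. The keratin genes, which encode the filaments of epithelia and hair, had 1 higher and 2 lower of 45 regions in the type I window and 0 of 35 in the type II window. The epidermal differentiation window had 3 higher (7.89%) and 0 lower of 38 regions and a mean of 0.00. Over all regions the mean was 0.01 with an SD of 0.28, and 1.66% were higher and 1.33% lower.

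**Figure D5:**
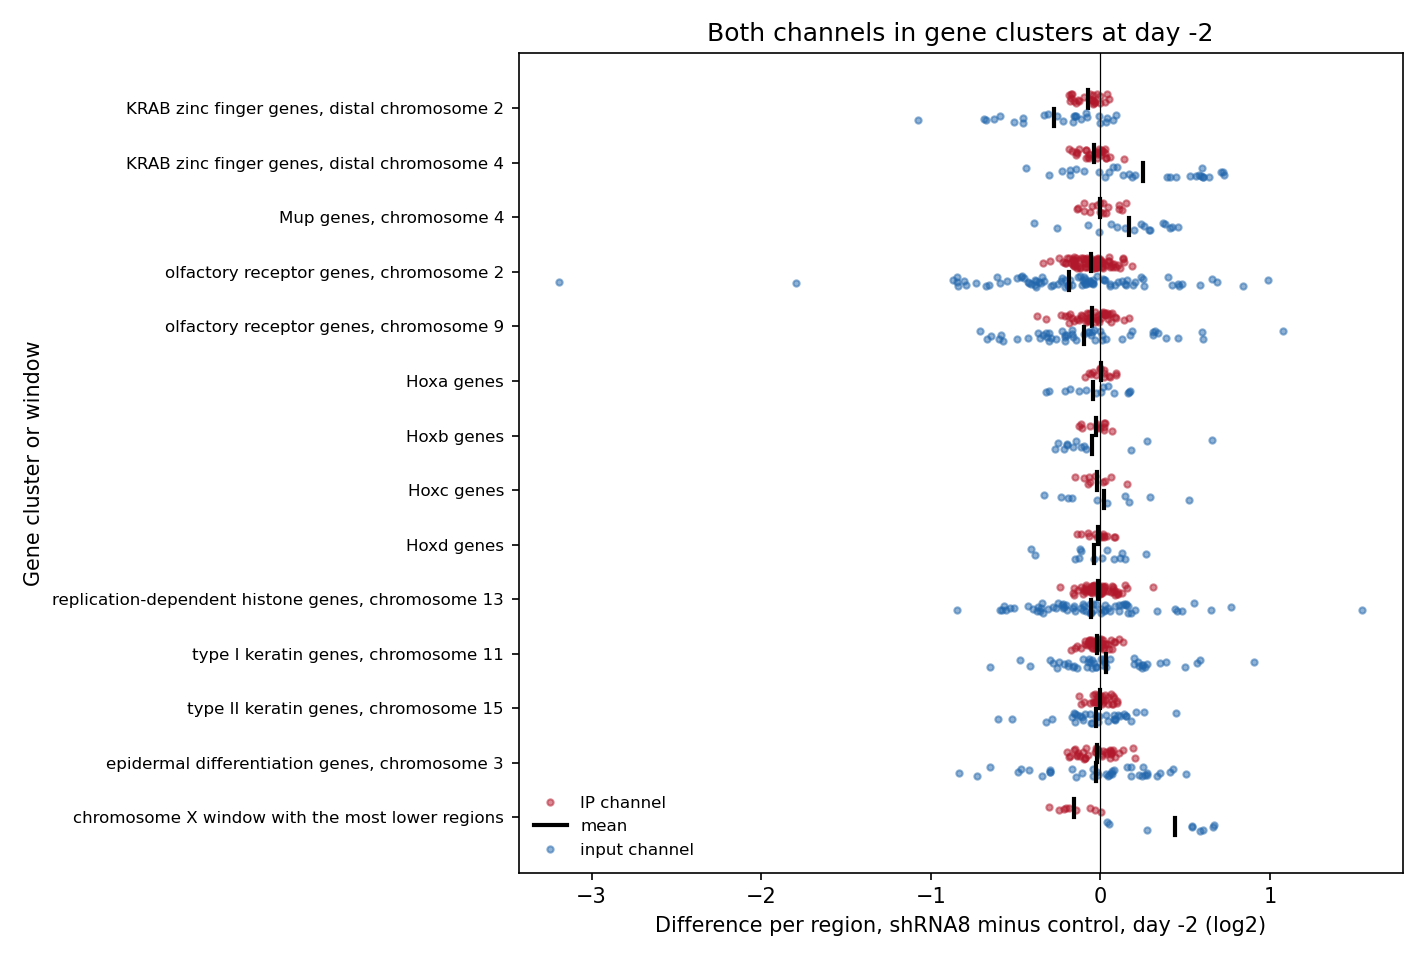
Difference between shRNA8 and control at day -2 (horizontal axis, log2) of every region in 13 gene cluster windows and in the chromosome X window of 144 to 146 Mb (vertical axis), with the IP channel above, the input channel below and black bars for means. The input means are 0.25 in the chromosome 4 zinc finger window, 0.44 in the chromosome X window and -0.27 in the chromosome 2 zinc finger window, while the IP means are at most 0.15 in size.

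The leading windows for higher regions were chromosome 2, 88 to 90 Mb, inside the olfactory window, with 5 of 38, and chromosome 10, 128 to 130 Mb, with 4 of 50. Chromosome 18, 36 to 38 Mb, had 4 of 58, chromosome 12, 74 to 76 Mb, had 3 of 13, and chromosome 5, 124 to 126 Mb, had 3 of 34. Of all regions 1.66% were higher. Their mean ratio differences ran from 0.06 to 0.15. At day +2 the windows held 2, 4, 2, 0 and 1 higher regions, in the same order, and the chromosome 10 window also held 5 lower ones. At that day 2.3% of all regions were higher and 2.39% lower.

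Regions with many probes differed little, and the spread of the region means narrowed with the number of probes. The SD of the ratio difference was 0.37 over regions of 3 probes and 0.21 over those of 7 or more. Of regions with 3 probes 3.74% were higher and 2.75% lower, and of those with 7 or more 0.27% and 0.41%. Whether the long regions differ from others apart from their probe number was not tested. The 33 regions with 15 or more probes had ratio differences from -0.30 to 0.18 (SD 0.10), none past the size rule, at a median carried-forward error of 0.16. Their IP differences ran from -0.10 to 0.05. The most negative was chr4:88432584-88439855, with 23 probes, at -0.30 on day -2 and -0.31 on day +2. The most positive was chr13:23830140-23838721, with 17 probes, at 0.18. Among regions whose probes all had input well above background in both arrays, 26 of 10220 were higher and 30 lower.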

How the data were processed

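MeDIP DNA (Cy5) and input DNA (Cy3) were hybridised together, per the labels; the series is typed as sequencing, but the deposited files are array scans. The authors deposited spot tables made with Agilent Feature Extraction 11.0.1.1 on mm9, per the file headers. The values used were the deposited processed signals (intensity, background-subtracted and dye-normalised per the file headers) and their errors. The deposited log10 ratio of the processed signals, per the file headers, entered no value given here. limma is listed in the submitters' processing notes with no role given. The labelling protocol names a NimbleGen kit.

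From these, log2 ratios of IP to input were taken over genomic probes with the input flagged positive and significant in both arrays. Ratio, IP and input values of each array were each centred on their median over these probes before differences were taken. Channel differences therefore need not add exactly to the ratio. Regions, size rules and errors are defined in the results; Python 3.11.15, pandas 2.3.3, numpy 2.4.6, R 4.3.3 and limma 3.58.1 (loess alternative) were used. Named regions were the 10 of each sign with the largest mean among called regions of at least 5 probes all moving one way, 5 of each sign in the IP channel, and the 5 windows of each sign with the most calls. The region code was tested on simulated data. Members and lists were chosen with earlier results of these data known. Gene lists were not analysed and no sequence is printed, because the files pair probes with mm9 positions only and the reference tables used another build. Spacing and lengths of probes were compared within chromosomes to find repeated layouts. Normalisation, background filters, spot flags, region rules and size rules were varied. No p-value was computed.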

Additional observations from a re-analysis of the deposited data

Results flagged for a closer look

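Of the regions named above, 9 had a difference at day +2 of the opposite sign to that at day -2, with 1 array per line and day, so the difference between the days was not tested. Among the higher ratios these were chr18:69110695-69112394 (0.98 at day -2, -0.11 at day +2), chr2:175294521-175295918 (0.93 and -0.23), chr9:74917717-74919406 (0.88 and -0.31) and chr6:86743288-86744844 (0.84 and -0.36). Among the lower ratios they were chr17:95233645-95235456 (-1.49 and 0.11) and chr8:123650298-123651935 (-1.05 and 0.14). In the IP channel they were chr7:3867037-3867908 (0.31 and -0.040), chr19:12342711-12343163 (-0.48 and 0.19) and chr19:8798224-8798953 (-0.42 and 0.017).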

How the results depend on the processing

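The counts of 314 higher and 252 lower regions depended on the processing, and the cause was not tested. They were 620 and 494 with a within-array loess, 3 and 5 with median spot signals without background subtraction, 183 and 128 of 21973 regions with no background filter, and 26 and 30 with input well above background. They were 96 and 87 with at least 5 probes, 937 and 750 at a size of 0.4, 31 and 29 at a size of 1, and 86 and 95 without the farthest probe of each region, an alternative added after seeing the data. With all probes moving one way 210 were higher and 162 lower. The higher share was 55.5%, and 37.5% with median spot signals. Those signals include the input offset, which makes the size rule harder to reach. Quantile normalization gave 289 and 272. The input counts were 36 brighter and 34 dimmer with input well above background and 677 and 1148 at a size of 0.4. The IP counts were 14 brighter and 312 dimmer with no filter, 1 and 0 at a size of 0.6, and 460 and 1415 at a size of 0.1, and 53 were brighter without the farthest probe. With the IP also above background in both arrays they were 27 brighter and 137 dimmer. The olfactory window on chromosome 2 held 5 higher regions with no filter. The 20 regions named for their ratio were picked with all probes moving one way. Alternatives that only drop probes could therefore hardly reverse their sign. With input well above background 3 of the 20 had a value. The 20 regions kept their sign under every alternative that could give a value. Their sizes did not hold: chr17:95233645-95235456 went from -1.49 to -0.18, chr11:5468393-5469918 from -1.13 to -0.04 and chr3:144780260-144781901 from -0.96 to -0.05 with median spot signals, and with spots flagged by the software left out chr2:165419462-165420719 went from -1.01 to -0.49 and chr3:144780260-144781901 to -0.31. In the IP channel chr17:15699788-15701490 reversed, to -0.012 with input above background in all 4 arrays, -0.0073 with the IP also above background and -0.0064 without its farthest probe. No paired analysis was possible because each group had 1 array. The weak input signal and single arrays limit every ratio given here.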
